A study of Ovis aries with 2 samples.

Results

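The cells described here are cortical astrocytes of adult sheep, 318 of the 2125 barcodes of a single-nucleus RNA library from cerebral cortex and 318 of the 3030 barcodes of the series. A barcode was counted as an astrocyte nucleus when SLC4A4, GLI3, RFX4 and BMPR1B together had at least 4 unique molecular identifiers (UMIs, each standing for 1 captured RNA molecule) and at least 2500 CPM (UMIs per 1000000 UMIs of the barcode). It also had to stay under 4000 CPM for the neuronal gene SYT1, under 3000 CPM for PDGFRA, LHFPL3, VCAN and GPR17 of oligodendrocyte precursors, under 2000 CPM for UGT8, ST18, ERMN and CLDN11 of oligodendrocytes, and under 3000 CPM for CSF1R, P2RY12, INPP5D, C1QB and C1QC of microglia. Members were thus chosen by measured values of these genes, so the levels of those genes are descriptions and not findings.

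Both groups of the series were cerebral cortex of wildtype female Rambouillet sheep aged 18 to 36 months, not treated in life, and carry the same batch label. The tissue was dissected after death and nuclei were prepared with the Illumina T2 kit, and the series text calls the platform droplet-based and 3′. That text also speaks of 1 animal and of about 5000 captured nuclei per condition, beside the 2125 and 905 barcodes in the files. In the pre-processed group nuclei came straight from dissected cortex, and in the post-processed group debris and red blood cells were removed first. The post-processed library stands apart in depth, with a median of 146 UMIs per barcode against 2524, and no barcode sequence was shared by the libraries. There was 1 library per condition, so no test or p-value is given, and every interval is a 95% interval that covers counting error only. Groups follow the sample titles, because the post-processed library carries a treatment label that, against its title, says nothing was removed.

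Astrocytes are the star-shaped glia of grey and white matter. They take up potassium and neurotransmitters, supply neurons with metabolites, wrap synapses and blood vessels, and are coupled to each other through gap junctions. GLI3 is a transcription factor of hedgehog signalling, RFX4 a regulatory factor X protein of neural progenitors and astroglia, BMPR1B a type I receptor for bone morphogenetic proteins (BMPs), and SLC4A4 a sodium bicarbonate cotransporter. Hedgehog signalling runs from the ligand SHH through the receptor PTCH1 and the transducer SMO to the GLI factors, and in adult cortex astrocytes are known to respond to it.

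The astrocyte nuclei made up 14.96% of the pre-processed barcodes (exact Clopper-Pearson interval 13.5 to 16.6%). They held 904211 UMIs over the listed genes, with a lowest, median and highest total of 921, 2560.5 and 11649 UMIs per nucleus and a median of 1215.5 detected genes. For comparison the same cuts were used to name 1148 neuron, 83 oligodendrocyte precursor, 154 oligodendrocyte and 59 microglia barcodes, each over its own cut with at least 4 UMIs and under the other 4, while 363 barcodes stayed unassigned. Median depths were 4126 UMIs for neuron, 1903 for precursor, 1585.5 for oligodendrocyte and 1135 for microglia barcodes. The microglia barcodes held only 73959 UMIs in all, so low levels there are poorly measured.

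The summed level of the 4 rule genes ran from 2716 CPM at the lowest nucleus through a median of 8769 CPM to 20664 CPM at the highest, or 4, 22 and 158 UMIs. Just inside the cut lay nuclei at 2716, 2784 and 2988 CPM, and just outside it barcodes at 2142, 1977 and 1924 CPM. All 4 rule genes were seen in 247 nuclei, 3 of them in 62, 2 in 8 and 1 in 1 nucleus. The sum had a median of 203 CPM in neuron and 861 CPM in precursor barcodes, and of 0 in oligodendrocyte and microglia barcodes. Before the limits on other cell types 391 barcodes passed the astrocyte cut, and 73 of them were left out, 29 over the neuronal limit, 24 over the precursor, 17 over the oligodendrocyte and 6 over the microglial limit. These 73 barcodes had a median of 2367 UMIs.

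Among the rule genes, GLI3 had 3504 CPM in the summed astrocyte nuclei against 28.6 CPM in neuron, 53.6 in precursor, 81.5 in oligodendrocyte and 13.5 CPM in microglia barcodes. Its level per nucleus had a lowest value of 0, a median of 2910.3 and a highest value of 14706 CPM, and 10 nuclei had no UMI of it. SLC4A4 had 2909.7 CPM in astrocyte nuclei, and precursor barcodes came next at 604 CPM. BMPR1B, at 1873 CPM, was next highest in oligodendrocyte barcodes at 258 CPM. RFX4, at 1197 CPM, was next highest in precursor barcodes at 244 CPM. Of the 4 rule genes GLI3 thus had the largest ratio to its highest other class, and the next class differed from gene to gene.

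The marker genes TRPM3 and WDR49 are not used by the rule. They were chosen with earlier results of these data known, so their levels describe the class and are no independent check of its name. TRPM3, a calcium-permeable cation channel, had 11148 CPM in astrocyte nuclei and between 189 and 848 CPM in the other classes. It was seen in 315 of 318 nuclei, with a lowest, median and highest level of 0, 9949 and 35846 CPM. WDR49 had 695 CPM in astrocyte nuclei, was seen in 229 of them and lay between 7.90 and 54.1 CPM elsewhere. After thinning every barcode to 900 UMIs, which left out no pre-processed barcode, TRPM3 was seen in 97.8% (95.5 to 99.1%) of astrocyte nuclei, 32.5% of precursor, 23.8% of neuron, 17.5% of oligodendrocyte and 13.6% of microglia barcodes. Median depths before thinning were those given above, and unthinned TRPM3 was seen in 99.1% of astrocyte nuclei. GFAP, AQP4, ALDH1L1, SLC1A2 and SLC1A3, the best known astrocyte markers, are not analysed here, so the name rests on other markers.

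**Figure D1:**
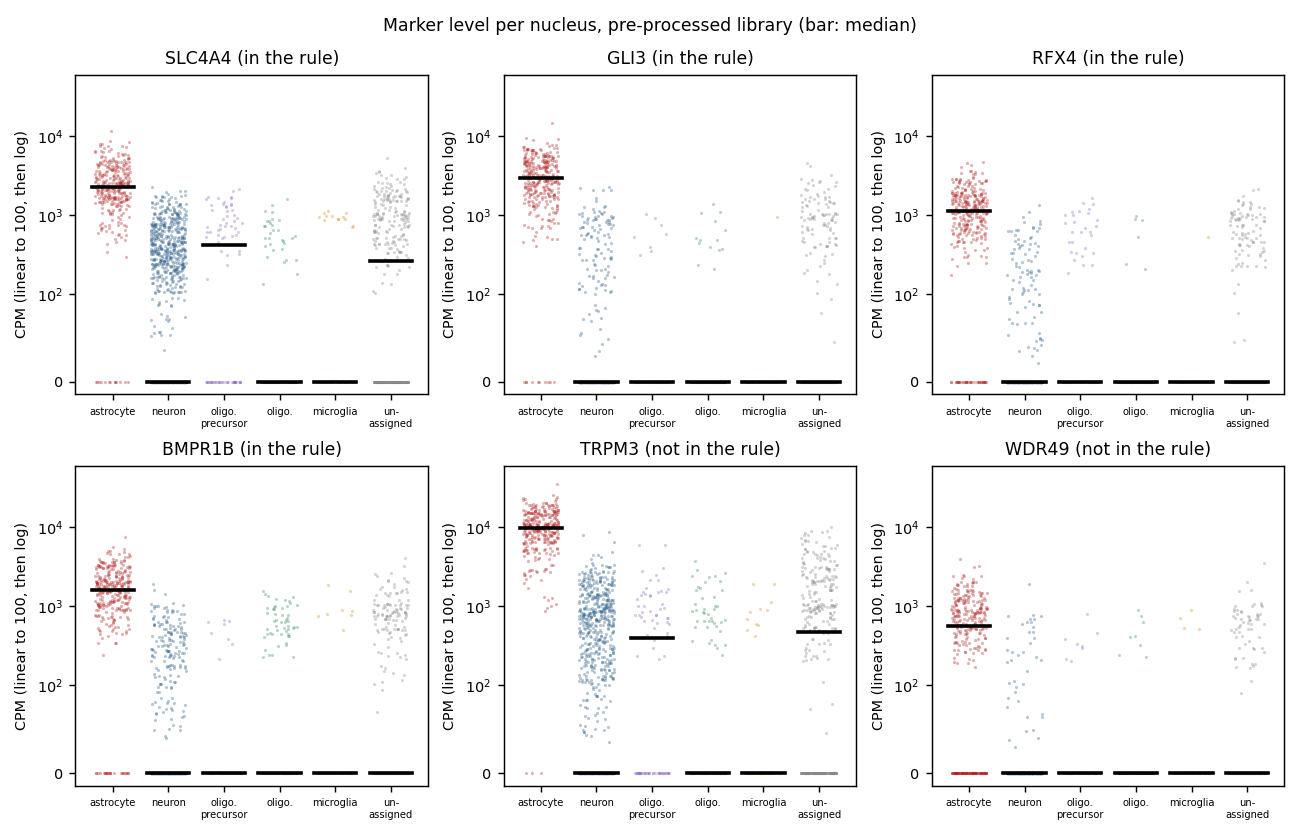
Level of the 4 rule genes and of TRPM3 and WDR49 in each barcode of the pre-processed library (CPM, linear to 100 and logarithmic above), by class, with 1 point per barcode and a bar at the median ("oligo." stands for oligodendrocyte). TRPM3, which the rule did not use, has a median of 9949 CPM in astrocyte nuclei, and many unassigned barcodes reach 1000 CPM or more.

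Levels in the summed astrocyte nuclei were compared with those in each other class over 5609 genes with at least 100 UMIs in the library. 87 of them, or 1.55%, were at least 4-fold higher in astrocyte nuclei than in every one of the 4 other classes, and 83 of these were outside the rule. Of the 83 genes, 70 are annotated as protein-coding and 13 as long non-coding RNA. The class next to astrocyte nuclei was picked after 0.5 counts were added to every class. Picked so, it was neuron for 12, precursor for 23, oligodendrocyte for 24 and microglia for 24 of them. The added counts raise levels most in microglia barcodes, which held the fewest UMIs. The class picked is therefore not always the one with the next highest CPM, and the microglia count may be too high. Because the classes were cut from the same barcodes, these ratios describe the class and are no independent check of it.

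The highest ratio belonged to LOC105608370, a long non-coding RNA without a gene name whose protein-coding neighbours are QKI and C8H6orf118. It had 1314 CPM in astrocyte nuclei, with a lowest, median and highest level per nucleus of 0, 953 and 11869 CPM. Oligodendrocyte barcodes came next at 47.6 CPM, 26.7-fold lower (interval 16.4 to 50.7). TNC, the matrix glycoprotein tenascin-C, had 524 CPM and was seen in 202 nuclei, against 5.08 CPM in neuron, 16.98 in oligodendrocyte and 13.5 CPM in microglia barcodes and 0 UMIs in precursor barcodes. RPE65, the retinoid isomerase of the visual cycle, was seen in 161 nuclei at a summed level of 354 CPM and stood at 4.09 CPM in neuron, 4.87 in precursor and 13.6 CPM in oligodendrocyte barcodes. For each of these 3 genes the astrocyte level was over 20 times the next, although the counts behind the lower levels were few, such as 5 TNC and 4 RPE65 UMIs in oligodendrocyte barcodes.

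Transcription factors stood among the 20 leading named genes. OTX1, a homeobox factor of the forebrain, had 169 CPM and was 19.99-fold above the next class, which had 2 UMIs (interval 6.78 to 208). ATOH8, a basic helix-loop-helix factor, had 134 CPM in astrocyte nuclei, seen in 76 of them, against 1 UMI in the next class (log2 ratio 4.20, interval 2.27 to 10.09). RFX2, a regulatory factor X protein of ciliary genes, had 429 CPM against 39.00 CPM in precursor barcodes, but its gene overlaps ACSBG2 in the RefSeq table.

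Other leading genes have varied roles. SLCO1C1, a carrier of thyroid hormone and organic anions, had 343 CPM in astrocyte nuclei and at most 16.98 CPM elsewhere. SLC15A2, a peptide transporter, had 492 CPM, 10.6-fold above precursor barcodes, and overlaps the unnamed gene LOC101111847. SLC25A48, a mitochondrial carrier, had 518 CPM against 40.6 CPM in microglia barcodes, which held only 3 UMIs of it, so this ratio is poorly measured. ITGA7, an integrin receptor for laminin, was seen in 276 nuclei at 930.1 CPM, 9.66-fold above neuron barcodes. ETNPPL, an enzyme that breaks down phosphoethanolamine, had 191 CPM and was 9.46-fold above the next class, which had 1 UMI (interval 2.51 to 562). Other leading genes were C6H4orf19, GNA14, NHSL1, SERPINI2, REDIC1 and ITPRID1, at ratios between 9.81 and 20.1-fold. The class next to GNA14 held 2 UMIs of it (interval 4.20 to 127) and that next to SERPINI2 3 UMIs (interval 4.71 to 68.5).

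Reads of overlapping genes may be split between them, and whether the counting used strand is not given in the sources used here. 7 of the 20 leading genes overlap another protein-coding gene in the RefSeq table, SERPINI2 and WDR49 among them, which overlap each other. Their values are therefore uncertain as to which gene of the pair they belong to. The same holds for the rule gene RFX4, which overlaps a protein-coding gene without a name. How many of all tested genes overlap another was not counted.

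**Figure D2:**
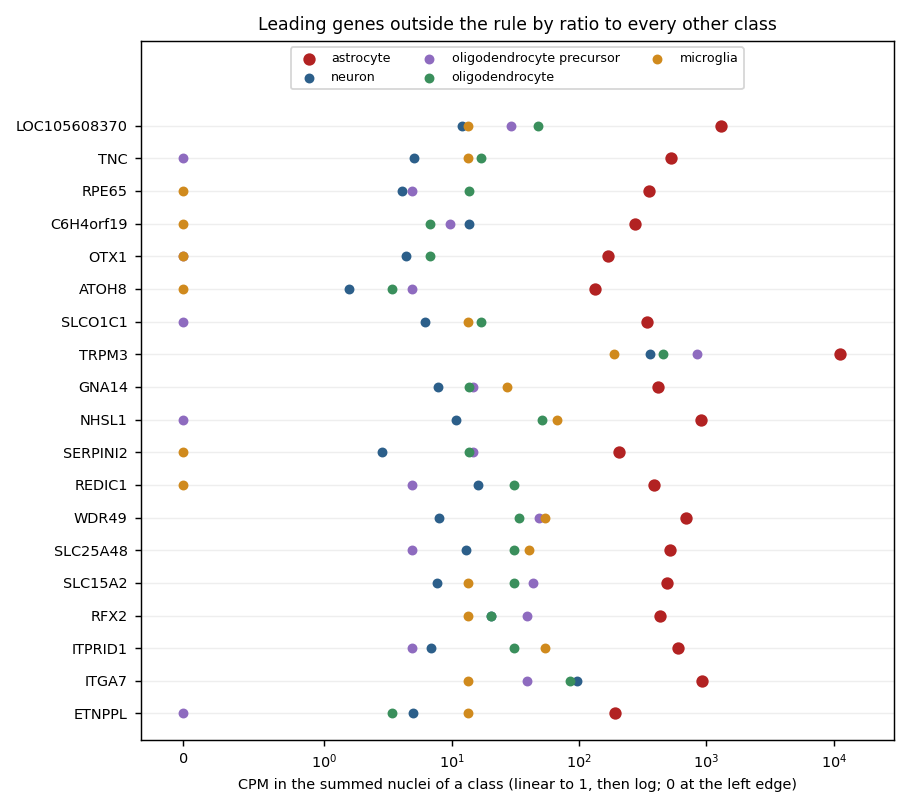
CPM of the leading named genes in the summed nuclei of each class (linear to 1, logarithmic above, 0 at the left edge), ordered by the ratio of astrocyte nuclei to the highest other class. In every row the astrocyte point lies to the right of the other 4, by 9.46-fold for ETNPPL and 26.7-fold for LOC105608370.

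Gene lists were read against all 1807 other barcodes of the library, in log2 ratios of CPM. The UMIs of these barcodes were pooled, and neuron barcodes held 7085621 of the 9580441 UMIs of the library. The comparison therefore weighs neurons most, and a gene called higher can still have more CPM in a smaller class. Of the 5609 tested genes 17.8% were at least 2-fold higher and 19.9% at least 2-fold lower in astrocyte nuclei, with a median log2 ratio of 0.17. These shares are the background for every list count below, and counts of short lists near them cannot be told from them. Below, higher and lower mean past 2-fold in this comparison, and members with fewer than 100 UMIs in the library are given by their UMIs only.

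Of 25 genes listed for astrocyte identity outside the rule, 12 were measured, and all 12 were higher, beside 17.8% of all tested genes, with a median log2 ratio of 3.63. GJA1, the gap junction protein connexin 43, had 552 CPM in astrocyte and 37.8 CPM in other barcodes (log2 ratio 3.87, interval 3.66 to 4.07) and was seen in 224 nuclei. FGFR3, a fibroblast growth factor receptor, had 356 against 20.9 CPM (4.09, interval 3.83 to 4.36). NDRG2 and MLC1, a protein of astrocyte endfeet, had ratios of 3.29 (3.16 to 3.42) and 3.40 (3.24 to 3.57). S100B, a calcium-binding protein, had a lower ratio of 1.97 (1.78 to 2.15), with 370.5 CPM in astrocyte, 257 in microglia and 245 CPM in oligodendrocyte barcodes. ADGRV1, an adhesion receptor, had the lowest ratio of the list at 1.91 (1.77 to 2.04). 5 of the 12 genes, SLCO1C1, TRPM3, WDR49, ETNPPL and FGFR3, were also at least 4-fold above every other class.

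Another list held genes that astroglia share with oligodendrocyte precursors, 10 of 12 listed genes being measured and 9 tested. 8 of the 9 were higher, with a median of 1.87. BCAN and PTPRZ1, a proteoglycan and a receptor phosphatase of the perineuronal matrix, nonetheless had more CPM in precursors, at 3217 CPM against 1466 CPM and 3144 against 2067 CPM. SOX5 had 3801 CPM and was 2.65-fold above precursor barcodes.

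Of 24 astroglial transcription factors outside the rule 17 were measured and 15 tested, 12 higher, none lower and 3 between, with a median of 2.24. TCF7L1, a factor of Wnt signalling, had 1093 CPM and a ratio of 4.70 (4.53 to 4.88), the highest of the list. HES1, a target of Notch signalling, had a ratio of 3.87 (3.44 to 4.32). LHX2, a forebrain LIM homeobox factor, had 564 CPM, 4.58-fold above neuron barcodes. ZBTB20 was seen in 315 nuclei at 5558 CPM, but oligodendrocyte barcodes had 4969.8 CPM of it. The 3 members of the nuclear factor I family differed, with ratios of 2.14 (2.06 to 2.21) for NFIA, 0.91 (0.79 to 1.02) for NFIB and -0.36 (-0.50 to -0.23) for NFIX. RFX3 had a ratio of -0.15 (-0.30 to 0.004), beside 3.94 for its paralog RFX2.

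The hedgehog pathway was measured from ligand to target. The ligand SHH had 0 UMIs in astrocyte nuclei and 11 in all other barcodes. All 5 tested members were higher, with a median of 2.13, out of 8 measured and 12 listed. The receptor PTCH1 had 419 CPM and a ratio of 2.13 (1.95 to 2.31), and the co-receptor BOC one of 1.84 (1.67 to 1.999). SMO, the signal transducer, had 160.4 CPM in astrocyte, 73.1 in precursor and 3.10 CPM in neuron barcodes (4.12, interval 3.72 to 4.53). GLI2 was seen in 79 nuclei at 107 CPM, with 4.46 as its ratio. GLI1, itself induced by the pathway, had 45 UMIs in 38 astrocyte nuclei and 15 UMIs in the 1807 other barcodes. When ratios were rescaled by the median gene, 4 of the 5 were past 2-fold.

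For BMP and TGF-beta signalling without the rule gene BMPR1B, 9 of 20 listed genes were measured and 7 tested, of which 3 were higher and 4 between, with a median of 0.60. The type II receptors BMPR2 and ACVR2A had ratios of 0.16 (-0.04 to 0.35) and -0.34 (-0.65 to -0.06), and the type I receptor ACVR1 one of -0.68. SMAD5, an intracellular mediator, and TGFBR1, a TGF-beta receptor, were higher at 1.17 and 1.44. ID2, a BMP target, was higher at 1.92 (1.64 to 2.18), and ID3 had 38 UMIs in astrocyte nuclei against 23 in all other barcodes. With every barcode weighing the same, 1 of the 7 was higher. The ligand BMP4 had 3 UMIs in astrocyte nuclei and 88 in the others.

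Receptors known in astrocytes went both ways. Of 13 measured members of 22 listed 12 were tested, 7 higher, 3 lower and 2 between, with a median of 1.16. Of all tested genes 17.8% were higher and 19.9% lower, and the 3 lower receptors cannot be told from that share. After rescaling by the median gene 6 were higher, GABRA2 lying under 2-fold. GRM3, a metabotropic glutamate receptor, had 4049.9 CPM in astrocyte nuclei, 3054 CPM in oligodendrocyte and at most 561 CPM in the other classes. Its level per nucleus ranged from 0 through a median of 3089.8 to 16899 CPM. S1PR1, a receptor for sphingosine phosphate, had 375 CPM and was 5.05-fold above the next class. NTRK2, the receptor for brain-derived neurotrophic factor, had 3832 CPM against 1677 in neuron barcodes.

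The subunits of GABA receptors differed within the list. GABRG1, GABRB1 and GABRA2, subunits of the ionotropic receptor, had ratios of 2.60 (2.34 to 2.85), 1.40 (1.35 to 1.45) and 1.08 (0.98 to 1.18). GABBR2, a subunit of the metabotropic receptor, had 119 CPM in astrocyte and 1408 CPM in neuron barcodes and a ratio of -3.39 (-3.69 to -3.13). ADRA1A, an adrenergic receptor, had 9 UMIs in astrocyte nuclei and a ratio of -2.84 (-4.05 to -1.99). ERBB4, the neuregulin receptor, lay at the 2-fold line with -1.004 (-1.07 to -0.94), and GRIA1 and LPAR1 lay near 0 with -0.08 and -0.004. GRIK1, a kainate receptor subunit outside the list, was among the 10 genes with the most UMIs in astrocyte nuclei, at 9734 CPM, 4.06-fold above precursor barcodes and seen in 316 nuclei.

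Of the genes of ion and water transport 6 of 11 were measured and 5 tested. KCNJ10, the inwardly rectifying potassium channel of astrocytes, had 369 CPM in astrocyte and 353 CPM in oligodendrocyte barcodes, which was 2.82 (2.61 to 3.02) against all others. TRPM3 was the other higher member. SLC12A2, a chloride cotransporter, was lower at -1.48 (-1.90 to -1.12), and the chloride channel CLCN2 lay between at -0.65. AQP1 had 0 UMIs in the whole library. Of 15 genes of transmitter uptake and amino acid metabolism 2 were measured, CBS, an enzyme of sulphur amino acids, at 1.90 (1.27 to 2.48) with 34 UMIs, and the glycine transporter SLC6A9 at 0.63 (0.21 to 1.01).

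Genes of metabolism, lipids and hormones were mostly higher, 6 of 8 tested, with 9 of 19 measured and a median of 3.25. DIO2, which activates thyroid hormone, had 233 CPM in astrocyte nuclei and 7.95 CPM in all others (4.87, interval 4.48 to 5.29), and it stands in the list with SLCO1C1, which carries that hormone (4.88, interval 4.55 to 5.22). DIO2 was seen in 107 of the 318 nuclei, and its highest nucleus had 8185 CPM. ALDH1A1, which makes retinoic acid, had 75 UMIs and a ratio of 4.62 (3.997 to 5.30). PDK4, a brake on glucose oxidation, had 3.78, the cholesterol exporter ABCA1 2.72 and the fatty acid activating enzyme ACSL3 2.20. ABCA1 had more in microglia barcodes, at 987 CPM against 588 CPM. LDHB and the glycogen branching enzyme GBE1 lay between, at 0.62 and -0.48.

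Among adhesion genes 3 of 8 tested were higher, GJA1, MLC1 and LSAMP, and 4 lay between. CADM2 had the largest share of the astrocyte UMIs, 2.10%, but its level of 20993 CPM was only 1.601-fold that of neuron barcodes. NRCAM, NCAM2 and NLGN1, adhesion molecules of synapses and axons, had ratios of -0.24, -0.24 and -0.81. The other genes with the most UMIs were RORA, LSAMP, TRPM3, GRIK1, ADGRB3, CTNNA2, SPARCL1, NCKAP5 and LRP1B. This order is one of UMI counts only, and whether gene length bears on it was not tested. Of these genes RORA, a nuclear receptor, was 3.03-fold above the next class, and ADGRB3 and LRP1B stood at 0.15 and 0.07 against all others.

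Secreted regulators of synapses and the phagocytic receptors listed with them were higher in all 4 tested members of 6 measured and 10 listed, with a median of 2.67. SPARCL1, or hevin, had 7811 CPM in astrocyte nuclei and at most 2326 CPM in another class, with a lowest, median and highest nucleus of 0, 7335 and 30541 CPM. SPARC had a ratio of 1.98 (1.70 to 2.25). MERTK, a receptor for engulfment of cell debris, had 1679.9 CPM in astrocyte and 1677 CPM in microglia barcodes, and its log2 ratio between those classes was -0.0025 (-0.26 to 0.28). With every barcode weighing the same, 3 of the 4 were higher and MEGF10, another engulfment receptor, was not. MEGF10 had 231 CPM in astrocyte, 425 in oligodendrocyte and 825 CPM in microglia barcodes.

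Few genes of reactive astrocytes were measured, 6 of 17, and 2 of them were tested. TNC, described above, was higher at 5.40 (5.10 to 5.73). C3, a complement protein, was higher at 2.65 (2.12 to 3.15), but it had 59.7 CPM in astrocyte and 392 CPM in microglia barcodes. LCN2 had 3 UMIs and STEAP4 1 UMI in astrocyte nuclei, and CXCL10 and S1PR3 had 0. Among genes of fibrous astrocytes, those of white matter, TNC was higher and DPP10 and SLC38A1 were lower, at -2.52 (-2.67 to -2.38) and -1.19 (-1.54 to -0.87).

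Genes of motile cilia, which mark ependymal cells, were measured in 6 of 12 and tested in 4 cases. DNAH7 and CFAP54 were higher, at 1.63 (1.36 to 1.90) and 1.16 (0.92 to 1.40), ZBBX was lower at -2.09 (-4.60 to -0.73) with 3 UMIs, and SPAG17 lay between at -0.92. CFAP54 lay under 2-fold after rescaling by the median gene. The summed level of the list was 388 CPM in astrocyte nuclei, 202 CPM in neuron barcodes and between 27.04 and 92.6 CPM in the other classes, and TMEM212 was at 0 UMIs in the library.

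**Figure D3:**
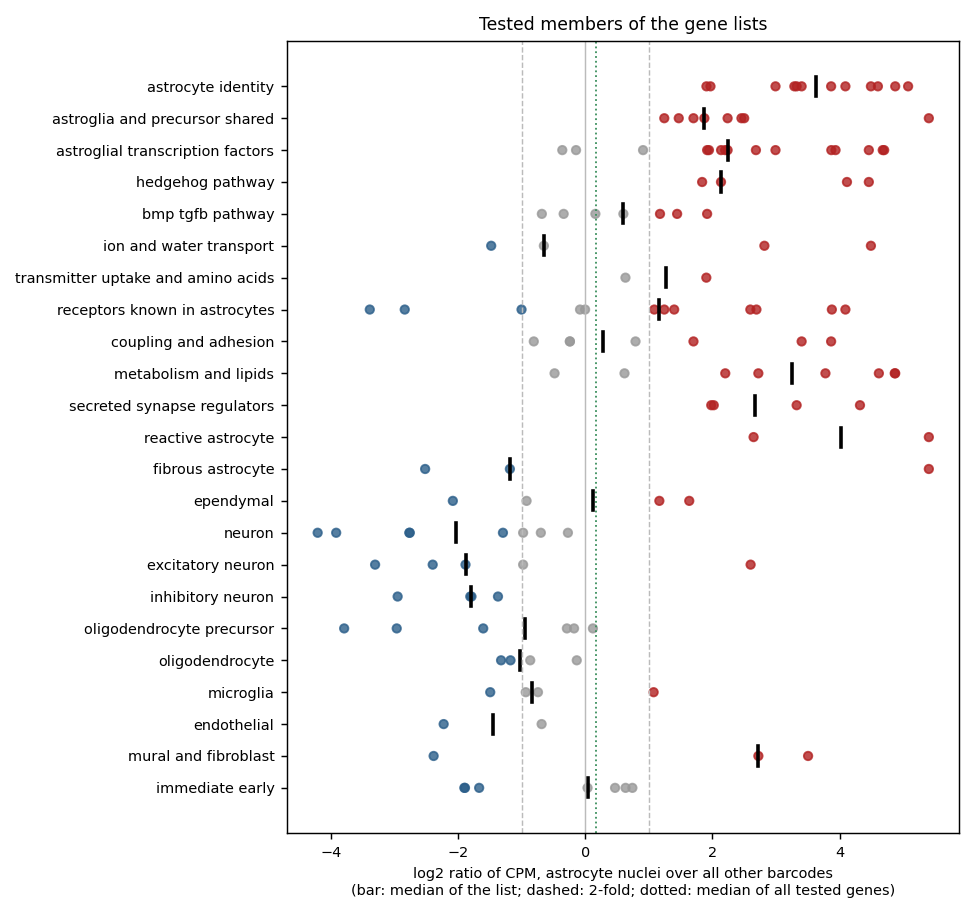
Log2 ratio of CPM in astrocyte nuclei to all other barcodes for the tested members of the gene lists described here, with 1 point per gene, red at 2-fold higher or more, blue at 2-fold lower or more, and a bar at the median of all tested members of the list. The identity list has all 12 points beyond the dashed 2-fold line, while the receptor list reaches from -3.39 for GABBR2 to 4.09 for FGFR3.

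Markers of other cell types were read in the same way, beside 17.8% higher and 19.9% lower of all tested genes. Of 8 tested neuronal genes 5 were lower and none higher, with a median of -2.03 and a summed level of 3134 CPM in astrocyte nuclei against 33708 CPM in neuron barcodes. CAMK2A, NEFM and NEFL lay between, at -0.98, -0.70 and -0.27. All 4 tested inhibitory neuron genes and 3 of 5 excitatory ones were lower. RORB, listed as a gene of layer 4 neurons, was higher at 2.60 (2.31 to 2.88), with 184 CPM in astrocyte and 31.9 CPM in neuron barcodes. KCNIP4, a neuronal potassium channel partner, had 946 CPM in astrocyte nuclei and 20145 CPM in neuron barcodes. At 900 UMIs KCNIP4 was seen in 54.1% (48.4 to 59.7%) of astrocyte nuclei, 55.2% of oligodendrocyte and 84.7% of microglia barcodes, and SYT1 in 38.1%, 47.4% and 66.1%. The astrocyte shares of both genes were no higher than those of oligodendrocyte and microglia barcodes. The cuts capped SYT1 in all of these glial classes, so its shares are in part set by them. Whether this RNA stands for expression in astrocytes was not tested.

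Of 6 tested precursor genes 3 were lower and 3 between, with a summed level of 293 CPM in astrocyte nuclei against 17056 CPM in precursor barcodes. Of 4 tested oligodendrocyte genes 2 were lower and 2 between, with 197 against 5089 CPM. The tested microglial genes were 1 higher, 1 lower and 2 between, with 244 against 13616 CPM. With so few genes these counts cannot be told from the 17.8% higher and 19.9% lower of all tested genes. DOCK8, the higher one, had 129 CPM in astrocyte and 2434 CPM in microglia barcodes, and its log2 ratio of 1.07 was -0.47 when each barcode weighed the same. The rule capped SYT1 and most tested genes of these other classes, among them all 4 oligodendrocyte genes, so their low levels are in part set by it. The other classes were in turn chosen for high levels of the same capped genes. The summed levels on both sides are thus largely fixed by the cuts and are no check of the class. With every barcode weighing the same, 5 of the 6 precursor genes, all 4 oligodendrocyte genes and 3 of the 4 microglial genes were lower. The same caps bear on these counts.

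For blood vessels, 2 of 10 endothelial genes were tested, VWF between at -0.69 and ABCB1 lower at -2.23, with 36 UMIs of the whole list in astrocyte nuclei and ADGRL4 at 0. Among mural genes PDGFRB and NOTCH3 were higher, at 3.50 (3.11 to 3.91) and 2.72 (2.29 to 3.14), and RGS5 was lower at -2.39 (-5.76 to -0.82) with 2 UMIs. PDGFRB was seen in 93 astrocyte nuclei and NOTCH3 in 66, while the mural genes ABCC9 and KCNJ8 had 4 and 1 UMIs there. DCN and LUM of fibroblasts were at 0 UMIs. Of 7 tested immediate early genes 3 were lower, JUNB, NR4A1 and ARC, and 4 lay between, with FOS at 0.03 (-0.96 to 0.81).

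The lowest ratios to all other barcodes belonged to GUCA1C, LOC132659558, KCNG3, SLC26A4, CCDC158, GLRA3, PAPLN, ITGA4, SLC1A1 and LRRTM4. GUCA1C had 0 astrocyte UMIs against 301 elsewhere, which at a floor of 3 counts in the summed nuclei is at least 10.5-fold lower. KCNG3, a potassium channel subunit, and the glycine receptor subunit GLRA3 were at 0 too, at least 7.75-fold and 6.57-fold lower. PAPLN and ITGA4 had bounds of 6.01 and 5.70-fold. SLC1A1, the neuronal glutamate transporter, had 6 UMIs or 6.64 CPM in astrocyte nuclei and 692 CPM in precursor barcodes (-4.99, interval -6.55 to -3.98). LRRTM4, a synaptic adhesion molecule, had 3 UMIs and an interval of -7.36 to -3.52.

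The spread among the 318 nuclei was described with a dispersion index, the Pearson statistic of a gene's counts divided by its degrees of freedom, which is 1 when counts vary as Poisson counts with the nuclei's depths. Of 1760 genes with at least 100 UMIs in astrocyte nuclei 482, or 27.4%, had an index of 1.5 or more, and the median was 1.30. The index grows with the number of UMIs, and at 900 UMIs per nucleus 76 of 542 genes, or 14.0%, reached 1.5. Of the 40 most dispersed genes 18 were highest in astrocyte nuclei, 12 in oligodendrocyte, 7 in neuron, 2 in precursor and 1 in microglia barcodes. In the same order of classes, all genes at 1.5 or more numbered 182, 80, 88, 65 and 67. Those below 1.5 numbered 365, 193, 141, 123 and 456.

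The most dispersed gene was LOC101113728, an unnamed protein-coding gene between TMEM215 and SCARA3, with an index of 12.8. Its level per nucleus had a 25th percentile of 1462, a median of 2840.1 and a 75th percentile of 5539.6 CPM and reached 28796 CPM. It was also the most dispersed gene at 900 UMIs, at 4.44. PTGDS, which makes prostaglandin D2, had an index of 5.54 and a lowest, median and highest level of 0, 1748 and 18325 CPM. Nuclei with much of one gene had much of the other, with a Pearson correlation of depth-scaled residuals of 0.75 over 318 nuclei. Correlations of LOC101113728 with SPARCL1, MLC1, CAMK2A and GJA1 were 0.67, 0.49, 0.47 and 0.46. With RORA, LSAMP and CADM2 they were -0.46, -0.45 and -0.43. These nuclei share 1 library, and the values are descriptions.

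Depth moved with several of these genes. In the 106 shallowest nuclei, with 921 to 1867 UMIs, PTGDS had 2849.8 CPM and in the 106 deepest, with 3421 to 11649 UMIs, 1774 CPM. MLC1 had 1158 and 543 CPM and LOC101113728 4847 and 3725 CPM. LSAMP went the other way, from 8015 to 14857 CPM, as did TRPM3 from 8407 to 12073 CPM and GLI3 from 2735 to 3934 CPM. SPARCL1 stayed within a narrower range, between 7543 and 8195 CPM. The neuronal genes KCNIP4 and CAMK2A were higher in the shallow nuclei as well, KCNIP4 at 1760.0 against 672 CPM and CAMK2A at 1246 against 456 CPM. The part of depth and of neuronal RNA in the spread of PTGDS, MLC1 and LOC101113728 was not tested.

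**Figure D4:**
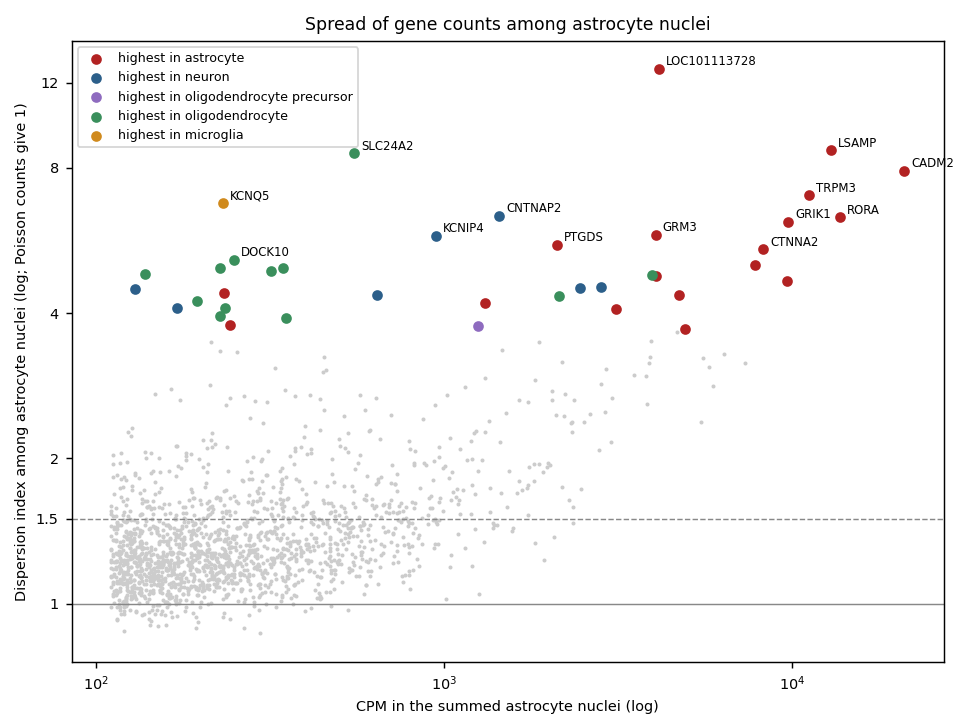
Dispersion index against CPM in the summed astrocyte nuclei for the genes with at least 100 astrocyte UMIs (both axes logarithmic), with the most dispersed genes coloured by the class in which their level is highest and the leading ones named. LOC101113728 stands at 12.8 above all others, and SLC24A2, highest in oligodendrocyte barcodes, reaches 8.56 at a far lower level.

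A second group of dispersed genes was highest in oligodendrocyte barcodes, with SLC24A2, DOCK10, ANO4, RNF220, PDE1A, GRM8, HAPLN2, PEX5L and PLCL1 among the 40. SLC24A2, a sodium-calcium-potassium exchanger, had 551 CPM in astrocyte nuclei and 13472 CPM in oligodendrocyte barcodes. Its median in astrocyte nuclei was 0 and its highest nucleus had 12526 CPM, so no astrocyte nucleus reached the oligodendrocyte level. SLC24A2 correlated at 0.78 with ANO4, 0.78 with DOCK10 and 0.76 with RNF220. None of the 4 oligodendrocyte rule genes was seen in 246 nuclei, where SLC24A2 had 158 CPM. In 55 nuclei with some UMIs of them, under 1000 CPM, it had 899 CPM, and in 17 nuclei at 1000 CPM or more 3462 CPM. Those 17 nuclei held 44.2% of the SLC24A2 and 49.8% of the DOCK10 UMIs of the class, at a median depth of 3571 UMIs against 2369.5 in the 246. TRPM3 had 11725, 10405 and 7586 CPM in the 3 groups and GLI3 3741, 3079 and 2408 CPM. The groups were cut by genes that the rule itself limits, and they differ in depth. Their values are therefore descriptions only, and the source of the oligodendrocyte RNA was not tested.

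KCNQ5, a potassium channel gene, was highest in microglia barcodes at 7693 CPM and had an index of 6.75 among astrocyte nuclei. With all limits on other classes divided by 2 its index was 1.84, that of KCNIP4 was 4.02 and that of LOC101113728 was 12.95. KCNIP4 correlated with the neuronal genes SYT1 and PTPRD at 0.53 and 0.53. Among genes highest in astrocyte nuclei the correlations were 0.50 for LSAMP and CADM2, 0.50 for LSAMP and RORA and 0.43 for LSAMP and TRPM3. LSAMP itself had an index of 8.69, and GRM3 one of 5.81.

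**Figure D5:**
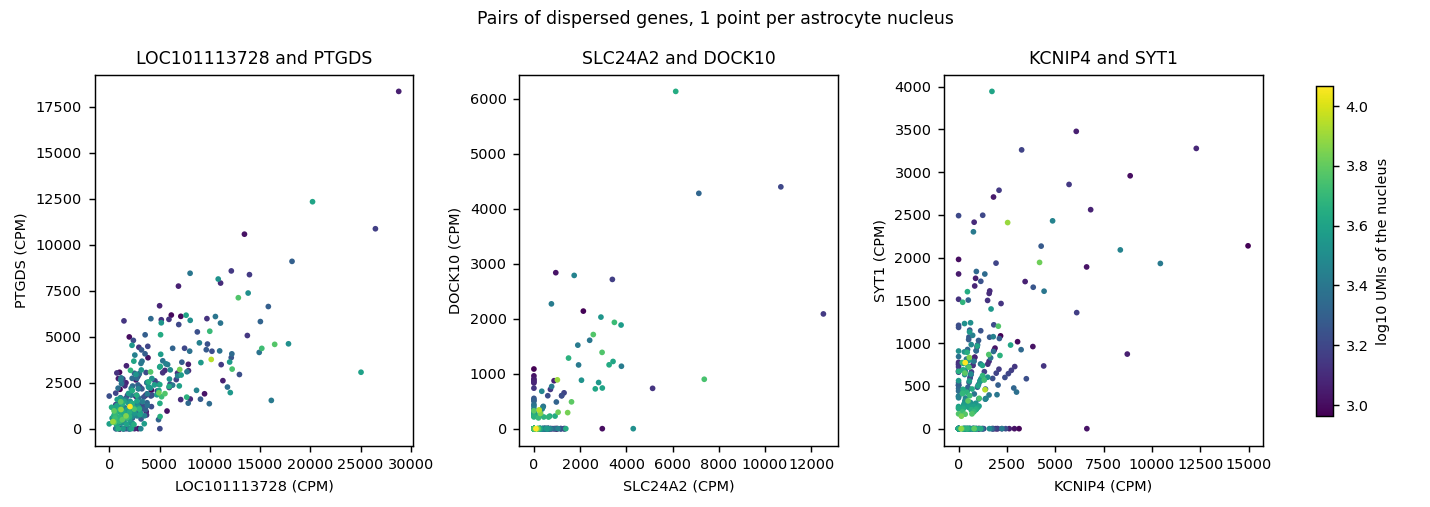
CPM of 3 gene pairs in each of the 318 astrocyte nuclei, with 1 point per nucleus coloured by its log10 UMIs. LOC101113728 and PTGDS are high in the same nuclei (residual correlation 0.75), SLC24A2 and DOCK10 are near 0 in most nuclei and high together in a few, and SYT1 ends below the limit of 4000 CPM that the rule set.

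Applied to the post-processed library the rule found 3 of 905 barcodes, or 0.331% (0.0684 to 0.966%). They had 416, 761 and 2031 UMIs, with 6, 5 and 8 UMIs of the rule genes and 1, 2 and 31 UMIs of TRPM3. The barcode with 761 UMIs also had 2628 CPM of the microglial genes. At the median post-processed depth of 146 UMIs a level of 2500 CPM means 0.365 UMIs, under the minimum of 4. Among the 213 post-processed barcodes at least as deep as the shallowest pre-processed one, with 904 UMIs, 1 was an astrocyte, or 0.469% (0.0119 to 2.59%). With 3 barcodes no astrocyte profile of the post-processed library can be given, and fewer astrocyte nuclei and less RNA per nucleus cannot be told apart in it.

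Summed over all barcodes of each library, genes of the astrocyte profile were read as log2 ratios of post-processed to pre-processed CPM. RFX4 had 4 UMIs after processing and a ratio of -4.77 (-6.82 to -3.58), and GLI3 one of -3.27 (-3.84 to -2.79). LOC105608370 and RPE65 had 0 UMIs after processing, with 1499 and 401 before it. TRPM3 had a ratio of -0.89 (-1.01 to -0.78) and TNC of -0.98 (-1.66 to -0.42). S100B had one of -0.18 (-0.53 to 0.13), and MERTK and PDGFRB had more CPM after processing, at 1.51 (1.37 to 1.65) and 1.19 (0.65 to 1.67). In the pre-processed library MERTK was as abundant in microglia as in astrocyte barcodes, so these library-wide ratios are not ratios within astrocytes.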

How the data were processed

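Nuclear RNA of sheep cortex was measured in 2 libraries, 1 per condition. The matrices deposited by the authors hold UMI counts per gene and barcode, whole numbers with no normalization. The DRAGEN pipeline is named in the submitters' processing notes and Seurat in the series text. The sources used here do not give the genome build, the strand setting or how barcodes were called.

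The files list 13765 features under 12652 distinct symbols, all found in the RefSeq ARS-UI_Ramb_v3.0 table, which was used for names, neighbours and overlaps only. Features that share a symbol were kept apart, and no gene named here is among them. UMIs were summed over the barcodes of a class and divided by their total to give CPM, and log2 ratios were taken with 0.5 counts added. Their intervals are exact conditional binomial and those of shares exact Clopper-Pearson, at 95%. They cover counting error only, and no interval stands for animals. Barcodes were thinned once to 900 UMIs (seed 1). No doublet caller was run, and barcodes over a limit of another class were left out instead. Calls were made for genes with at least 100 UMIs, and the counting was checked on simulated counts. The dispersion index and the residuals behind the correlations take each gene's expected count from the nucleus's depth. Residuals were clipped at 10 for the correlations and not for the index.

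The genes named were the rule genes and markers, the 20 leading genes with at least 100 astrocyte UMIs, the 10 with the most UMIs, the 10 lowest, the 15 most dispersed and the members of 24 gene lists. Genes without a symbol were named only among the top 3 of a ranking, and other genes were chosen after their values were seen. A few genes that these rules name are not reported here and are not drawn, but counts and medians include them. The members and lists were chosen with earlier results of these data known. Alternatives covered the cuts, limits, scaling, filters and added counts. Analyses used Python 3.11.15, numpy 2.4.6, scipy 1.17.1, pandas 2.3.3 and matplotlib 3.10.9.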

Additional observations from a re-analysis of the deposited data

How the results depend on the processing

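The astrocyte share of the pre-processed barcodes was 13.3% with at least 8 UMIs of the rule genes, 18.4% with no limits on other classes and 13.0% with the limits divided by 2, and between 14.2% and 15.3% under the other cuts. That of the post-processed library lay between 0.110% and 0.552%. With no filter on low counts 2994 of 10454 genes were at least 2-fold higher and 1774 at least 2-fold lower, beside 996 and 1114 of 5609. The higher ones made up 62.8% of both instead of 47.2%. Without the filter, genes with no astrocyte UMI can count as higher through the 0.5 counts added, as CXCL10 did at a log2 ratio of 1.68. The count of genes 4-fold above every class lay between 79 and 115. At 900 UMIs per nucleus 76 genes reached the dispersion index of 1.5, where fewer genes had enough UMIs. Scaling by the median gene took 0.17 off every log2 ratio and moved 53 of 162 named genes beyond their intervals. Weighing every barcode the same moved 94 and turned DOCK8 to -0.47, and the cause was not tested. The limits divided by 2, the restriction to deep post-processed barcodes and the setting of classes at 0 to 3 UMIs were chosen after seeing the data. No paired analysis was possible because each condition had 1 library. Depth limits what can be read from the 59 microglia and 3 post-processed astrocyte barcodes.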

Other observations

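2 protein-coding genes without names, LOC105614340 and LOC114115250, lie next to each other beside BST1 in the RefSeq table and were both far higher in astrocyte nuclei than in any other class. They were singled out after their values were seen. LOC105614340 had 462 CPM in astrocyte nuclei, was seen in 202 of 318 and was 21.1-fold above the next class. LOC114115250 had 177 CPM, was seen in 102 nuclei and was 14.9-fold above the next class, which had 3 UMIs (interval 5.84 to 85.1). BST1, a cell-surface enzyme of NAD metabolism, had 8 UMIs or 8.85 CPM in astrocyte nuclei, and its log2 ratio to all other barcodes was 1.52 (0.11 to 2.63).

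CA8, a carbonic anhydrase relative without enzyme activity, was among the 40 most dispersed genes with an index of 3.78, a level of 243 CPM and a highest nucleus of 4809 CPM, and 236 nuclei had no UMI of it. PREX2, a Rac exchange factor, had an index of 4.77 and 4058 CPM. HDAC9, a histone deacetylase, had an index of 4.35 and 4733 CPM. All 3 were highest in astrocyte nuclei.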
